A study of Homo sapiens with 9 samples.

Results

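The 10 genes described here take up, store, export, release and sense iron: TFRC, TFR2, SLC11A2, FTH1, FTL, NCOA4, SLC40A1, HMOX1, IREB2 and ACO1. They were taken by symbol from the 26830 genes that the files list, and all 10 were found. Their levels were read in poly(A) RNA of human cells labelled NB4 after 48 h with FB23-2, with FB23 or with the solvent DMSO, 3 libraries per group and 9 in all. Both compounds are labelled as inhibiting FTO, which takes methyl groups off adenosines in RNA, and the DMSO libraries are labelled as controls. No dose is stated, so doses may differ where times match. NB4 is an established promyelocytic leukaemia line, while the cell type label reads acute monocytic leukaemia.

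Cells take up iron mainly as transferrin bound to the transferrin receptor, keep what they do not use inside ferritin, a shell of heavy and light chains, and release the excess through ferroportin. Red cell precursors take up more iron than other cells, because they need it for haem. The balance is set after transcription: the iron regulatory proteins, encoded by ACO1 and IREB2, bind hairpins called iron-responsive elements when iron is scarce. Bound near the start of an mRNA, as in ferritin and ferroportin mRNAs, they hold back translation. Bound in the 3′ UTR of the TFRC mRNA, they protect it from decay. RNA sequencing therefore reads the level of these mRNAs and not the output of protein.

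The elements found are shown because they place the hairpin before or after the coding region in 3 of these mRNAs. The search asked for a bulged C, 5 bases of stem, the loop CAGTGN and 5 bases that pair with the stem in at least 4 of the 5 positions, G with T allowed, on the transcribed strand only. It was run for 4 of the 10 genes, TFRC, SLC11A2, FTL and SLC40A1, on the GENCODE release 29 transcripts paired with the RefSeq transcripts in the files. FTH1 was not searched, and elements with another loop would not be found. The paired transcripts are not identical: the GENCODE one has 5111 bases and the RefSeq one 5083 for TFRC, 3762 and 3795 for SLC11A2, 878 and 871 for FTL, and 3442 and 3355 for SLC40A1. In the 3′ UTR of TFRC, on the minus strand, it found 4 matches, all paired at 5 of 5 positions. FTL, on the plus strand, and SLC40A1, on the minus strand, had 1 match each, in the 5′ UTR. Capitals mark the bulged C and the loop, and positions are on GRCh38.
TFRC chr3:196050980-196051006: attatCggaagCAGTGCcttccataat
TFRC chr3:196050576-196050602: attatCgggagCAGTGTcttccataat
TFRC chr3:196050511-196050537: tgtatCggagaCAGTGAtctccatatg
TFRC chr3:196050464-196050490: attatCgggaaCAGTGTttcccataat
FTL chr19:48965336-48965362: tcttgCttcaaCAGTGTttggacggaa
SLC40A1 chr2:189580662-189580688: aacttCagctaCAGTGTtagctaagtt

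Such matches are rare among coding transcripts, counted without leaving out the genes searched here. A match was present in the first 250 bases of 0.673% of 19024 coding transcripts, 1 per gene, and in the first 1000 bases of 2.4% of 9102 3′ UTRs. Of 3650 3′ UTRs at least as long as that of TFRC, 2 held 4 or more matches, and TFRC itself can be among them. The GENCODE transcript of SLC11A2 held 0 under this rule, which says only that these letters with this pairing are not in it, and the longer RefSeq transcript was not searched. The files give 1 transcript per gene, so isoforms with and without an element cannot be told apart.

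Library totals ran from 12360291 to 38410750 expected counts, the reads per gene that RSEM estimates. Of the 10 genes, 9 had enough counts to be tested among 13365 genes, and HMOX1 did not. Levels are given as TPM (transcript abundance scaled for length and for the library), and fold changes come from edgeR on the counts with TMM scaling, with p-values adjusted over all 13365 genes and called under 0.05. With FB23-2 the log2(TPM + 1) scale lies 0.24 higher than the log2 TMM scale in the median gene, and 0.01 higher with FB23. Differences from DMSO with FB23-2 thus look more positive in TPM. Nothing states that replicates were grown apart, and the spread behind each p-value may thus be technical. Markers of red cell precursors were abundant: 9 genes, among them HBG1, HBG2, HBZ, HBA1, HBE1, KLF1, GATA1 and TAL1, summed to 3609 to 4048 TPM with FB23-2, 29190 to 31230 TPM with FB23 and 25870 to 27390 TPM with DMSO. The 5 granule genes of promyelocytes (MPO, ELANE, PRTN3, AZU1 and CTSG) summed to at most 1.77 TPM in any library, with MPO and CTSG at 0 counts in all 9. These levels do not bear out the promyelocytic origin of the line. For the labelled monocytic cell type no separate list was read: CD14 averaged 0.283, 0.33 and 0.37 TPM with FB23-2, FB23 and DMSO, and CD68 averaged 33.5, 5.46 and 5.06 TPM.

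**Figure D1:**
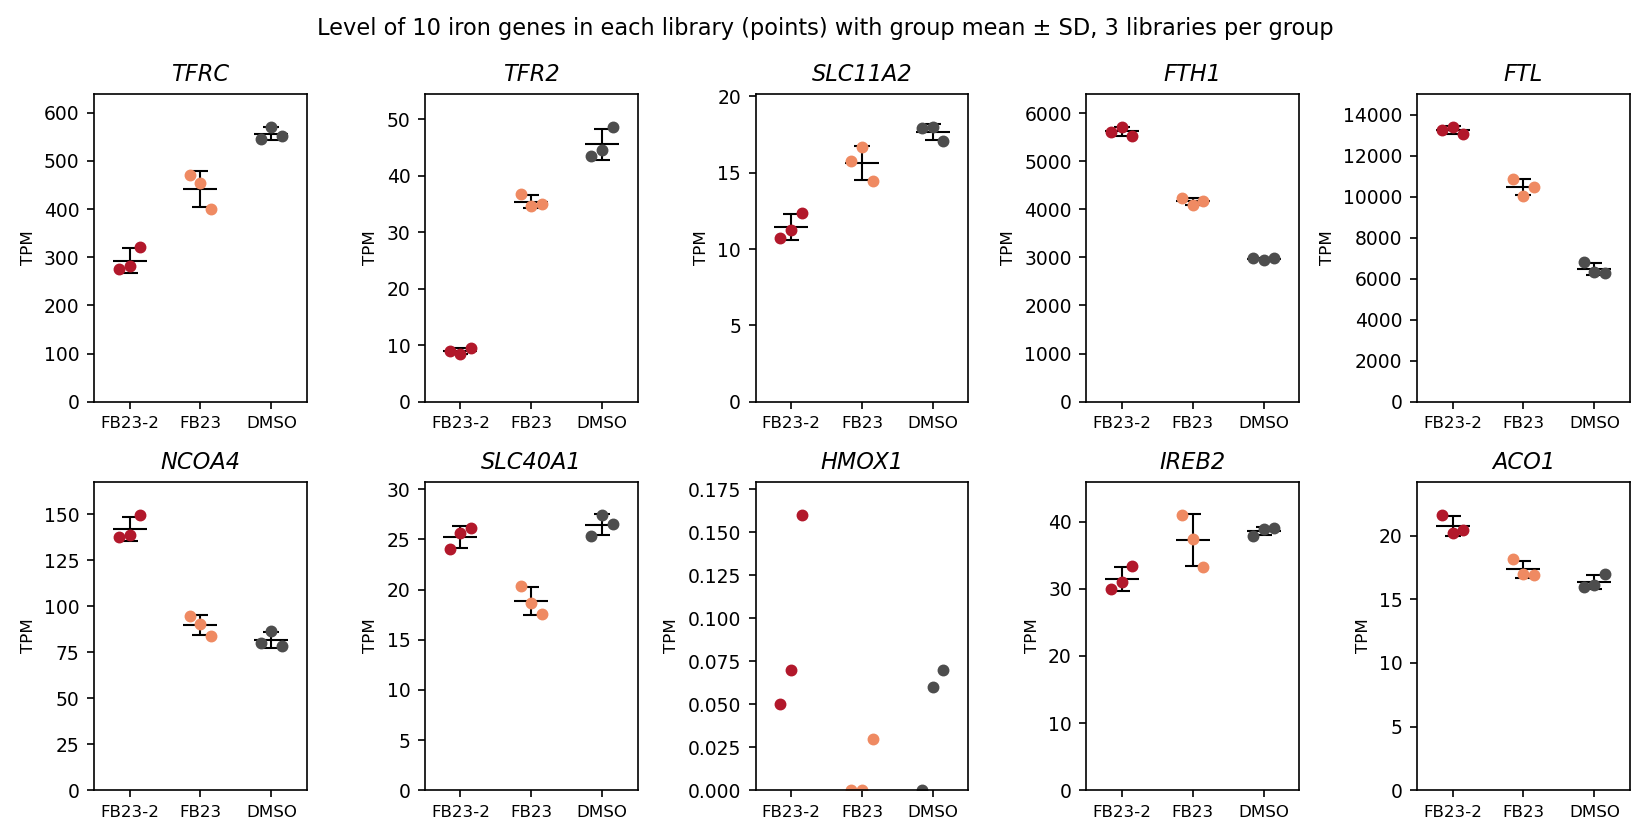
TPM of each of the 10 genes in each library (points) with the group mean and SD (black, 3 libraries per group; no mean is drawn for HMOX1), for FB23-2, FB23 and DMSO from left to right. The axis of each panel starts at 0. Both ferritin genes stand highest with FB23-2 and lowest with DMSO, TFRC, TFR2 and SLC11A2 the other way round, and HMOX1 does not pass 0.16 TPM in any library.

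Uptake genes were lower with both compounds, and far more so with FB23-2. TFRC, the transferrin receptor (chromosome 3, 196027183 to 196082189, GRCh38), had 275, 282 and 322 TPM with FB23-2, 471, 455 and 400.3 TPM with FB23 and 546, 572 and 552 TPM with DMSO. The 3 groups did not overlap. TFRC fell 2.26-fold with FB23-2 (log2 fold change -1.18 ± 0.05 SE, edgeR adjusted p = 2.71e-13) and 1.27-fold with FB23 (-0.35 ± 0.05, adjusted p = 9.07e-05), and was lower with FB23-2 than with FB23 by 0.83 ± 0.05 (adjusted p = 3.77e-11). In RNA from whole cultures, fewer cells of a type and less RNA per cell cannot be told apart. It was the 357th most abundant of 26830 genes by TPM with FB23-2, the 276th with FB23 and the 218th with DMSO.

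TFR2, a relative of the receptor that red cell precursors and liver use to sense transferrin (chromosome 7, 100620416 to 100642779), had the largest change of the 9 tested genes in FB23-2 against DMSO. It stood at 9.06, 8.50 and 9.48 TPM with FB23-2, 36.8, 34.6 and 34.9 TPM with FB23 and 43.6, 44.5 and 48.7 TPM with DMSO. No library of 1 group reached into another group. It fell to 0.167 of the DMSO level with FB23-2 (log2 -2.59 ± 0.06, edgeR adjusted p = 1.85e-16) and fell 1.30-fold with FB23 (-0.38 ± 0.05, adjusted p = 8.27e-05). The ratio of TFRC to TFR2 in TPM was 30.4 to 34.0 with FB23-2, 11.5 to 13.2 with FB23 and 11.3 to 12.8 with DMSO. FB23 and DMSO thus overlapped in that ratio and FB23-2 stood apart from both.

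SLC11A2 encodes DMT1, which carries ferrous iron out of endosomes (chromosome 12, 50979401 to 51028566). It had 10.7, 11.3 and 12.4 TPM with FB23-2, 15.7, 16.7 and 14.5 TPM with FB23 and 18.0, 18.03 and 17.05 TPM with DMSO. FB23-2 was lowest and DMSO highest, without overlap. It fell on the log2 scale with FB23-2 by 0.88 ± 0.06 (edgeR adjusted p = 6.63e-10) and by 0.19 ± 0.06 with FB23 (adjusted p = 0.0295). The call with FB23 was weak: it did not pass when DMSO replicate 1 was left out (-0.17, edgeR adjusted p = 0.117), without DMSO replicate 2 (-0.19, 0.0965), or leaving out FB23 replicate 3 (-0.15, 0.109). The summed red cell precursor markers above are lower with FB23-2, together with the 3 uptake genes, and are not lower with FB23. Their part in these falls was not tested.

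Ferritin mRNAs were higher with both compounds. FTH1, the heavy chain that oxidises iron (chromosome 11, 61959718 to 61967660), had 5613, 5721 and 5528 TPM with FB23-2, 4237, 4088 and 4170 TPM with FB23 and 2993, 2952 and 2979 TPM with DMSO. The groups were well apart, with an SD of at most 96.9 TPM within each. FTH1 rose 1.60-fold with FB23-2 (log2 0.68 ± 0.04, edgeR adjusted p = 1.66e-10) and 1.38-fold with FB23 (0.47 ± 0.04, adjusted p = 2.30e-06).

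FTL, the light chain that helps the mineral core to form (chromosome 19, 48965301 to 48966878), had 13263, 13433 and 13045 TPM with FB23-2, 10888, 10065 and 10480 TPM with FB23 and 6810, 6323 and 6304 TPM with DMSO. Every library with either compound lay above every DMSO library. The rise was 1.74-fold with FB23-2 (log2 0.80 ± 0.05, edgeR adjusted p = 8.83e-11) and 1.59-fold with FB23 (0.67 ± 0.05, adjusted p = 1.89e-07). By mean TPM it ranked 4th of 26830 genes with FB23-2, 5th with FB23 and 17th with DMSO. Together both ferritin genes took 0.745% to 0.791% of all counts with FB23-2, 0.616% to 0.658% with FB23 and 0.409% to 0.433% with DMSO. Macrophages are rich in ferritin, and a list of 7 of their markers summed to 30.5 to 37.2 TPM with FB23-2, 5.87 to 6.27 TPM with FB23 and 4.95 to 6.27 TPM with DMSO, with CD163 and MARCO at 0 in all 9 libraries. Nearly all of it was CD68, while CD14 and VSIG4 averaged 0.283 and 0.177 TPM with FB23-2 and 0.37 and 0.35 TPM with DMSO. A list of 5 lymphoid markers moved alike, with 32.3 to 35.8 TPM with FB23-2, 4.19 to 5.75 TPM with FB23 and 4.96 to 7.44 TPM with DMSO, nearly all of it CD3D, and with MS4A1 at 0 in all 9 libraries. Both marker sums with FB23 overlapped DMSO, where ferritin did not, and their part in the rise with FB23-2 was not tested.

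The chains did not keep the same ratio. FTH1 to FTL in TPM stood at 0.423 to 0.426 with FB23-2, 0.389 to 0.406 with FB23 and 0.440 to 0.473 with DMSO, and these ranges do not overlap. With 3 libraries against 3 an exact permutation test cannot go below p = 0.1 (two-sided), so this is given as a description. Ferritin genes have many processed copies in the genome, with which reads could be shared. Of the 3 such copies looked at in the files, FTH1P3 had 9, 6 and 8 counts over the 3 libraries of FB23-2, FB23 and DMSO, FTH1P18 0, 0 and 1, and FTLP10 0 in all.

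Direct comparison of the compounds for ferritin depended on the scale. On the TMM scale FTH1 was 0.21 ± 0.04 higher with FB23-2 than with FB23 (edgeR adjusted p = 0.000346), and FTL 0.13 ± 0.05 higher (adjusted p = 0.0276). In TPM the differences were 0.43 and 0.34, with the groups apart for both genes. On the TMM scale the groups were apart for FTH1 and overlapped for FTL. FTL was no longer called on leaving out DMSO replicate 2 (0.12, edgeR adjusted p = 0.0506), FB23 replicate 1 (0.12, 0.0521), FB23 replicate 2 (0.10, 0.111), FB23-2 replicate 1 (0.13, 0.0548) or FB23-2 replicate 2 (0.11, 0.103).

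NCOA4, the receptor that delivers ferritin to autophagosomes (chromosome 10, 46005088 to 46030714), was higher with FB23-2. It had 138, 139 and 150 TPM with FB23-2, 94.7, 90.4 and 84.0 TPM with FB23 and 79.8, 86.7 and 78.6 TPM with DMSO. The FB23-2 libraries lay above all others, and FB23 overlapped DMSO. The rise with FB23-2 was 1.46-fold (log2 0.55 ± 0.05, edgeR adjusted p = 4.28e-09). With FB23 the value was 0.12 ± 0.05, which did not pass (adjusted p = 0.0786), though it did with DMSO replicate 2 left out (0.16, edgeR adjusted p = 0.0487), and likewise FB23 replicate 3 (0.15, 0.0328). FB23-2 exceeded FB23 by 0.43 ± 0.05 (adjusted p = 1.04e-07).

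**Figure D2:**
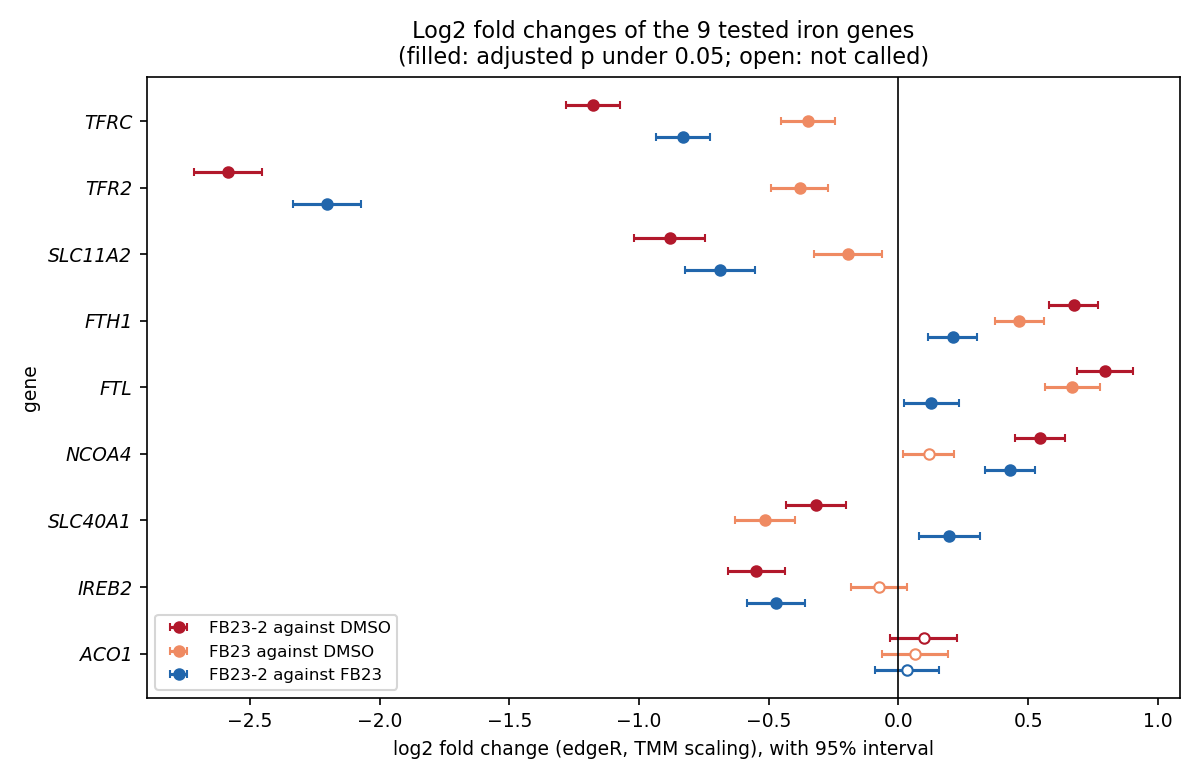
Log2 fold change (x axis, TMM scaling) with its 95% interval for the 9 tested genes in FB23-2 against DMSO (dark red), FB23 against DMSO (orange) and FB23-2 against FB23 (blue), filled where the edgeR adjusted p is under 0.05. TFR2 lies farthest from 0 at -2.59 in FB23-2 against DMSO, and the intervals of ACO1 include 0 in all 3 comparisons.

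SLC40A1 encodes ferroportin, the iron exporter (chromosome 2, 189560579 to 189583758), and was lower with FB23. It had 24.03, 25.6 and 26.1 TPM with FB23-2, 20.3, 18.7 and 17.5 TPM with FB23 and 25.4, 27.4 and 26.6 TPM with DMSO. FB23 stood below both other groups, and in TPM FB23-2 overlapped DMSO. It fell 1.43-fold with FB23 (log2 -0.51 ± 0.05, edgeR adjusted p = 7.20e-06). With FB23-2 it fell by 0.32 ± 0.05 on the TMM scale (adjusted p = 3.92e-05), but stood at -0.06 on the log2(TPM + 1) scale, where limma did not call it (adjusted p = 0.361). It was the 1 gene of the 9 that was higher with FB23-2 than with FB23 (0.20 ± 0.05, edgeR adjusted p = 0.00338) while called lower against DMSO with both.

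HMOX1 encodes the inducible haem oxygenase, which frees iron from haem (chromosome 22, 35380361 to 35394214), and was detected in few reads. It had 1, 1 and 2 counts with FB23-2, 0, 0 and 1 with FB23 and 0, 1 and 1 with DMSO, at most 0.16 TPM. No test was made at this depth, and a difference between groups was not detectable. HMOX2, the constitutive form, which is outside the rule for named genes and was picked as the counterpart, stood at 46.5 ± 1.27 TPM with FB23-2, 55.2 ± 3.91 TPM with FB23 and 54.5 ± 2.66 TPM with DMSO (SD, n = 3 each). It fell by 0.47 ± 0.07 with FB23-2 (edgeR adjusted p = 1.05e-05), while with FB23 the log2 fold change was 0.02 ± 0.07 (adjusted p = 0.889).

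Of the sensors, IREB2 was lower with FB23-2 and ACO1 was not called in any comparison. IREB2, which encodes the iron regulatory protein that is degraded when iron is plentiful (chromosome 15, 78437431 to 78501456), had 30.0, 31.1 and 33.4 TPM with FB23-2, 41.0, 37.4 and 33.3 TPM with FB23 and 37.9, 39.0 and 39.03 TPM with DMSO. The FB23-2 libraries lay below all DMSO libraries, and FB23 replicate 3 fell among the FB23-2 values. IREB2 fell 1.46-fold with FB23-2 (log2 -0.55 ± 0.05, edgeR adjusted p = 2.83e-08) and stood at -0.08 ± 0.05 with FB23 (adjusted p = 0.322). Against FB23, FB23-2 was lower by 0.47 ± 0.05 (adjusted p = 1.99e-07).

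ACO1 encodes the regulatory protein that turns into a cytosolic aconitase when it holds an iron-sulphur cluster (chromosome 9, 32384603 to 32454769). It had 21.6, 20.2 and 20.5 TPM with FB23-2, 18.2, 17.01 and 16.9 TPM with FB23 and 15.99, 16.2 and 16.98 TPM with DMSO. In TPM the FB23-2 libraries stood above the others. On the TMM scale the log2 fold change was 0.10 with FB23-2 (95% interval -0.03 to 0.23, edgeR adjusted p = 0.145) and 0.06 with FB23 (-0.06 to 0.19, adjusted p = 0.482), and FB23-2 differed from FB23 by 0.03 (-0.09 to 0.16, adjusted p = 0.611). With upper-quartile scaling ACO1 was called higher with FB23-2 against DMSO (0.27, edgeR adjusted p = 0.000474), as it was with library totals (0.25, 0.00121) and in TPM with limma (0.32, 0.000236). The same settings called it higher with FB23-2 than with FB23 (0.20, edgeR adjusted p = 0.00433 with upper-quartile scaling, 0.16, 0.0204 with library totals, and 0.25, limma adjusted p = 0.00185 in TPM). Its level with FB23-2 therefore depends on the scale. The ratio of IREB2 to ACO1 in TPM, which the library scaling does not enter, was 1.39 to 1.63 with FB23-2, 1.97 to 2.26 with FB23 and 2.30 to 2.41 with DMSO, and the 3 ranges do not overlap.

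**Figure D3:**
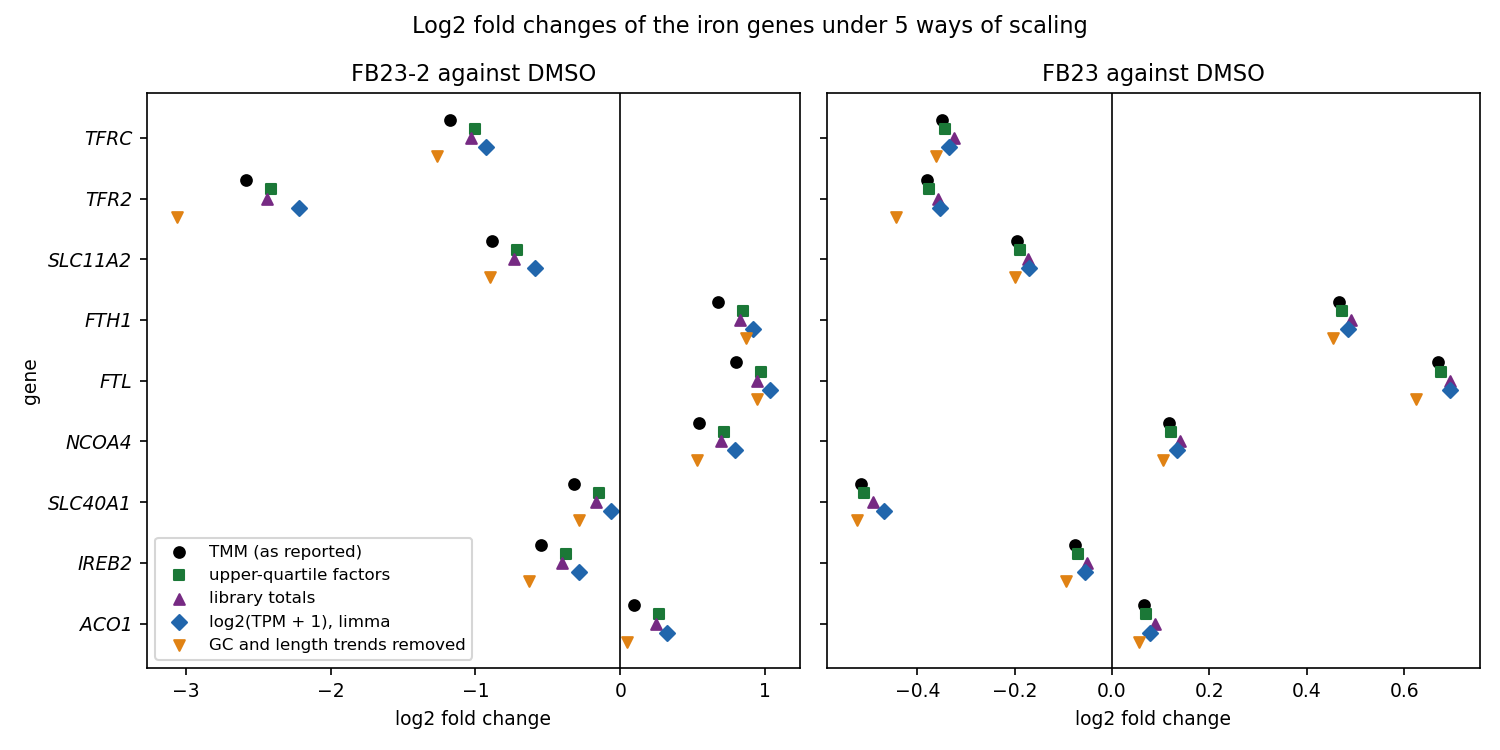
Log2 fold changes of the 9 tested genes against DMSO with FB23-2 (left) and FB23 (right) under 5 ways of scaling, each marker 1 way; the x axes differ. With FB23-2 the values of SLC40A1 run up to -0.06 and those of ACO1 from 0.05 to 0.32, while TFRC, TFR2 and SLC11A2 stay below 0 and FTH1, FTL and NCOA4 above it.

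Counted over the genes, FB23-2 against DMSO called 3 higher (FTH1, FTL and NCOA4) and 5 lower (TFRC, TFR2, SLC11A2, SLC40A1 and IREB2) of the 9 tested, 88.9%, where 82.6% of all genes tested were called. That share is close to the background. The median absolute log2 fold change was 0.68 in the 9 genes and 0.73 in all genes. FB23 against DMSO called 2 higher (FTH1 and FTL) and 4 lower (TFRC, TFR2, SLC11A2 and SLC40A1), 66.7%, where 23.5% of all genes were called. There the median absolute log2 fold change was 0.35 in the 9 genes and 0.14 in all genes. FB23-2 against FB23 called 4 higher and 4 lower, 88.9%, beside 81.5% of all genes (40.4% higher and 41.1% lower), with medians of 0.43 and 0.66. Called and at least 1 on the log2 scale, with TMM scaling, were TFRC and TFR2 in FB23-2 against DMSO, 2 of 9 (all genes 36.8%), none in FB23 against DMSO (all genes 1.16%) and TFR2 in FB23-2 against FB23 (all genes 32.2%). By the ratio of mean TPM in FB23-2 against DMSO, TFRC at -0.92 did not reach that size and FTL at 1.03 did. Groups did not overlap in CPM for 8, 6 and 7 of the 9 genes in these comparisons, where all genes had 84.2%, 37.9% and 81.2%. The comparisons against DMSO share the DMSO libraries, and 1 pair of compounds was compared.

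At the top the order of the TPM levels was the same in each group: FTL stood above FTH1, FTH1 above TFRC and TFRC above NCOA4, with no overlap in any group. Below these, with DMSO, TFR2 (43.6 to 48.7 TPM) stood above IREB2 (37.9 to 39.03 TPM), SLC40A1 (25.4 to 27.4 TPM) below both, and SLC11A2 (17.05 to 18.03 TPM) and ACO1 (15.99 to 16.98 TPM) lay close together. With FB23-2, TFR2 (8.50 to 9.48 TPM) came below SLC11A2 (10.7 to 12.4 TPM) and was the lowest of the 9. With FB23, TFR2 (34.6 to 36.8 TPM) and IREB2 (33.3 to 41.0 TPM) overlapped, as did SLC40A1 (17.5 to 20.3 TPM) and ACO1 (16.9 to 18.2 TPM).

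The patterns most like those of TFRC and FTH1 were sought among 6080 genes of at least 5 log2 CPM, by distance in centred log2 CPM over the 9 libraries. Nearest to TFRC were SLC38A1, an amino acid transporter gene (distance 0.131, log2 fold change -1.12 with FB23-2 and -0.26 with FB23), OTUD4 (0.136, -1.24 and -0.34) and PRKAR2B (0.138, -1.25 and -0.34). Nearest to FTH1 were PC, which encodes pyruvate carboxylase (0.129, 0.61 with FB23-2 and 0.40 with FB23), ACTR1B (0.146, 0.61 and 0.42) and NCKIPSD (0.154, 0.74 and 0.48).

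Other genes of iron handling were read as 8 lists of 86 genes, 78 of them tested. With FB23-2 26 were higher and 45 lower, beside 41.3% higher and 41.3% lower among all genes, and with FB23 14 were higher and 9 lower, beside 12.3% and 11.2%. Their median log2 fold change was -0.22 with FB23-2 and 0.02 with FB23, where all genes had 0.01 and 0.00. Calls in these lists are on the TMM scale, and some small falls with FB23-2 were not seen in TPM. The shares of all genes given here stand beside the counts of each list below.

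Genes of iron entry moved both ways. With FB23-2, 5 of 14 were higher and 7 lower (median -0.13), and with FB23 1 was higher and 3 lower (median -0.08). SLC25A28, called lower with FB23-2 (-0.23 with TMM), overlapped DMSO in TPM, at 0.01. STEAP3, which reduces the iron that transferrin brings in so that DMT1 can carry it, stood at 4.29 ± 0.585 TPM with FB23-2, 24.1 ± 0.218 TPM with FB23 and 29.8 ± 2.07 TPM with DMSO (SD, n = 3 each). The log2 fold change was -3.02 ± 0.09 for FB23-2 (edgeR adjusted p = 1.39e-15) and -0.32 ± 0.07 for FB23 (adjusted p = 0.0031). SLC39A8, a carrier of zinc, manganese and iron, fell by 1.78 ± 0.08 and 0.27 ± 0.07. SLC22A17, a receptor for lipocalin, rose by 2.93 ± 0.33 with FB23-2 at a low level, with 277 counts over the group and 29 with DMSO. PCBP3, of the family that includes iron chaperones, had 36 counts with FB23-2, 2 with FB23 and 0 with DMSO, at least 9.81-fold higher with FB23-2 against 3 counts over the DMSO group.

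Among genes of export and its regulation, NEO1 and BMP6, both of the signalling that leads to hepcidin in liver, were higher with FB23-2 at low levels. NEO1 stood at 2.95 ± 0.13 TPM with FB23-2, 0.283 ± 0.0404 TPM with FB23 and 0.107 ± 0.0462 TPM with DMSO. It rose by 4.50 ± 0.21 with FB23-2 (edgeR adjusted p = 1.03e-12) and by 1.36 ± 0.28 with FB23 (adjusted p = 0.00217), and BMP6 by 2.19 ± 0.36 with FB23-2. HEPH, a copper enzyme that oxidises exported iron, fell by 0.32 ± 0.05 with FB23-2 (edgeR adjusted p = 4.63e-06), but its mean was 44.5 TPM with FB23-2 and 46.7 TPM with DMSO. Of the 5 tested genes 3 were higher and 1 lower with FB23-2, and 1 higher and 0 lower with FB23. HAMP, the hepcidin gene, had 10, 3 and 3 counts with FB23-2, FB23 and DMSO, too few to test.

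Genes that control the iron regulatory proteins, most of them factors of cytosolic iron-sulphur assembly, were mainly lower with FB23-2 on the TMM scale: 11 of 13, with 2 higher (median -0.50). Among all genes 41.3% were lower. In TPM, SKP1 (-0.11 with TMM) stood above DMSO at 0.14, and NUBP1 (-0.23 with TMM) overlapped DMSO at 0.01. The other genes called lower stood below DMSO in TPM as well. FAM96A fell by 1.61 ± 0.09 (edgeR adjusted p = 6.48e-12) and CIAPIN1 by 1.35 ± 0.05. FBXL5, the iron-sensing ubiquitin ligase subunit that marks the IREB2 protein for degradation, rose with both compounds. It stood at 18.2 ± 1.66 TPM with FB23-2, 15.1 ± 1.52 TPM with FB23 and 12.1 ± 0.356 TPM with DMSO, and rose by 0.34 ± 0.07 (edgeR adjusted p = 0.000274) and 0.29 ± 0.07 (adjusted p = 0.00616). HERC2, which acts on the FBXL5 protein and may share reads with pseudogene copies, rose by 0.18 ± 0.04 with FB23-2. With FB23 3 of the 13 were higher and 2 lower (median 0.04).

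Mitochondrial iron-sulphur assembly showed 12 of 16 genes lower and 1 higher with FB23-2 on the TMM scale (median -0.41), where 41.3% of all genes were lower. With FB23 1 was lower and 1 higher (median -0.04). In TPM, ISCU, FDX1, GLRX5 and ISCA2, all called lower with FB23-2, overlapped DMSO, at 0.09, 0.07, -0.03 and -0.27. The other genes called lower stood below DMSO in TPM as well. BOLA3, which helps to pass clusters on to their targets, stood at 39.4 ± 4.03 TPM with FB23-2, 206 ± 9.90 TPM with FB23 and 213 ± 16.2 TPM with DMSO (SD, n = 3 each). It fell by 2.60 ± 0.15 with FB23-2 (edgeR adjusted p = 1.65e-11), and its log2 fold change with FB23 was -0.05 ± 0.11 (adjusted p = 0.788).

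Other mRNAs known to carry an iron-responsive element did not share a direction. EPAS1, a hypoxia factor with the element in its 5′ UTR, stood at 30.6 ± 1.61 TPM with FB23-2, 5.34 ± 0.289 TPM with FB23 and 5.08 ± 0.281 TPM with DMSO, and rose by 2.34 ± 0.06 with FB23-2 (edgeR adjusted p = 7.37e-16). ALAS2, whose enzyme starts haem production in the red cell lineage, also has a 5′ element. It fell by 1.04 ± 0.06 with FB23-2 and rose by 0.51 ± 0.05 with FB23. Of the 5 genes 4 were lower and 1 higher with FB23-2, and 1 was lower and 1 higher with FB23. CDC42BPA, called lower with FB23-2 (-0.20 with TMM), overlapped DMSO in TPM, at 0.06.

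**Figure D4:**
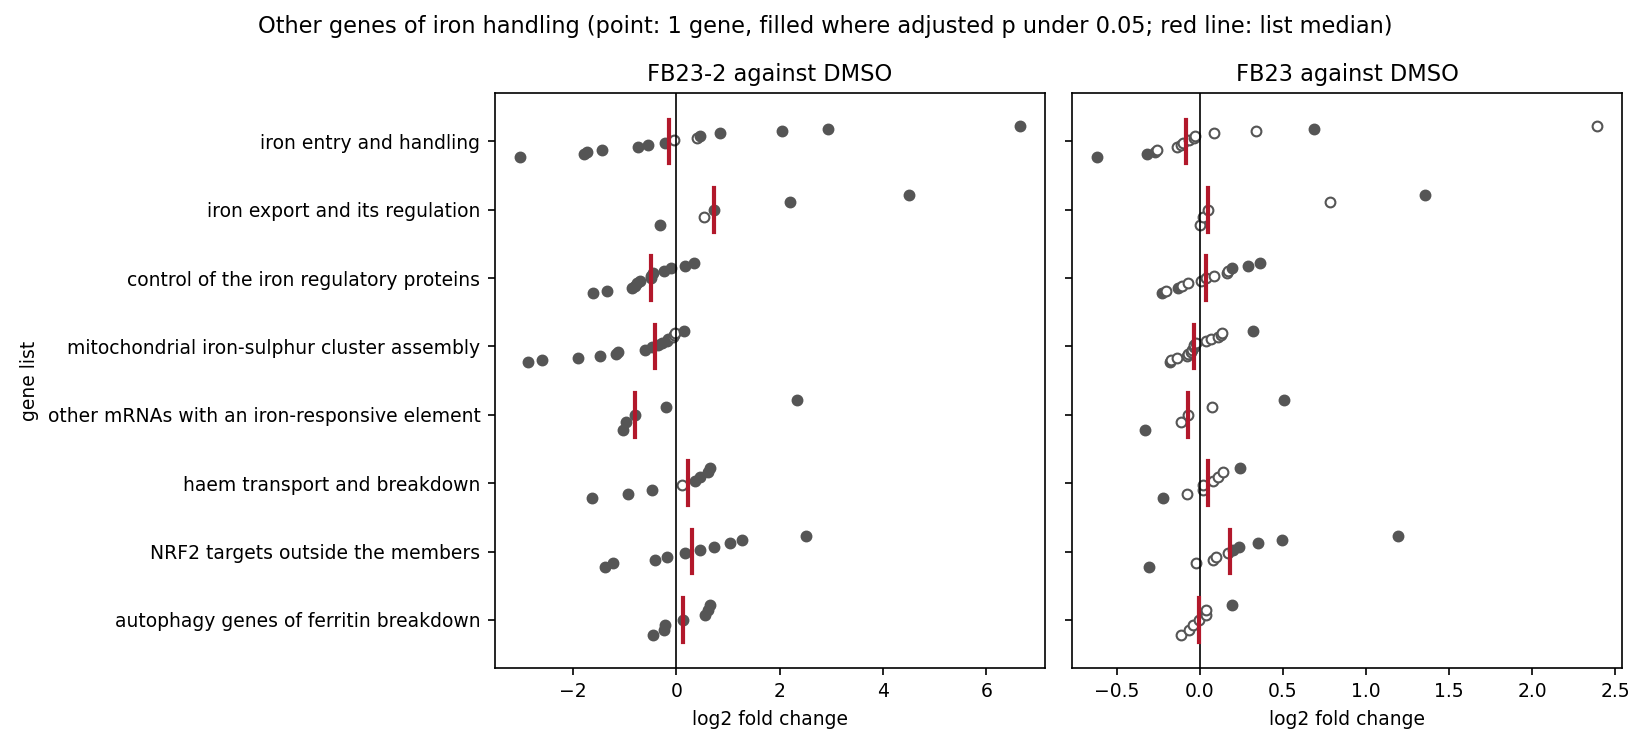
Log2 fold changes (x axes, which differ) of 78 other genes of iron handling in 8 lists, with FB23-2 against DMSO (left) and FB23 against DMSO (right). Each point is 1 gene, filled where the edgeR adjusted p is under 0.05, and the red line is the list's median. With FB23-2 the medians of the lists for control of the iron regulatory proteins, mitochondrial assembly and mRNAs with an element lie between -0.41 and -0.79, and the point at the far right in each panel is PCBP3, whose fitted value rests on 0 counts with DMSO.

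In the list of haem transport and breakdown, 4 of 8 tested genes were higher and 3 lower with FB23-2, and 1 was higher and 1 lower with FB23. FLVCR1, a haem exporter, rose by 0.66 ± 0.05 with FB23-2 (edgeR adjusted p = 1.16e-09), and BACH1, a repressor of HMOX1 and of the ferritin genes, by 0.62 ± 0.07 (adjusted p = 2.94e-07). BLVRB, a biliverdin reductase, fell by 1.63 ± 0.08 with FB23-2 (adjusted p = 1.68e-12), with 220 ± 9.87 TPM there and 578 ± 13.2 TPM with DMSO. KEAP1, the inhibitor of the oxidative stress factor NRF2, fell with FB23-2 by 0.93 ± 0.05 and with FB23 by 0.22 ± 0.05 (adjusted p = 0.00689). Autophagy genes that serve ferritin breakdown had 4 of 7 higher and 3 lower with FB23-2, RB1CC1 and PIK3C3 among the higher (0.64 ± 0.05 and 0.61 ± 0.08), and ATG16L1 and ATG5 among the lower (-0.45 ± 0.06 and -0.24 ± 0.06). In TPM, ATG5 and ATG7, both called lower with FB23-2, overlapped DMSO, at log2 ratios of 0.01 and 0.04. With FB23 1 was higher and 0 lower.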

How the data were processed

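Directional poly(A) RNA libraries were sequenced for 9 samples, 3 per group. The authors deposited 1 table per library with the expected count, TPM and FPKM of each gene, made with RSEM 1.2.31 on GRCh38 per the submitters' processing notes. Neither aligner nor annotation release is stated there. The FPKM values that the authors deposited were not used, and the deposited TPM values were taken as levels. After rounding, the expected counts went into edgeR 4.0.16 (R 4.3.3; filterByExpr at 10 counts, total 15; TMM scaling; two-sided quasi-likelihood F test; all 9 libraries in 1 fit of group means; Benjamini-Hochberg adjustment over 13365 genes). Alternatives used other scalings and filters, DESeq2 1.42.0, limma 3.58.1 with voom and on log2(TPM + 1), a replicate block and the removal of each library. The code was tested on simulated counts. No pair of replicates held identical values.

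The 10 genes and all gene lists were chosen with earlier results of these data known. From each list of related genes, up to 2 called genes with the highest and up to 2 with the lowest log2 fold change in FB23-2 against DMSO were named, and some of these are not reported here. Sequences and positions came from GENCODE release 29. Reads of genes with near-identical copies are uncertain, and no source states the strand setting of the counting.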

Additional observations from a re-analysis of the deposited data

How the results depend on the processing

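No gene reversed among the calls, and the counts of called genes stayed within 1.5 times their values in every alternative run. Of the 9 genes, 8 to 9 were called in FB23-2 against DMSO, 5 to 8 in FB23 against DMSO and 6 to 9 in FB23-2 against FB23. Upper-quartile scaling moved the median of all genes in FB23-2 against DMSO by 0.172, library totals by 0.148 and log2(TPM + 1) by 0.235. Those settings called ACO1 higher with FB23-2 than with DMSO and than with FB23, and SLC40A1 against DMSO stood at -0.15, -0.17 and -0.06, the last of these not called. In FB23 against DMSO, SLC11A2 was not called with library totals (-0.17, edgeR adjusted p = 0.0633), with no filter (-0.16, 0.108) or in TPM (-0.17, limma adjusted p = 0.131). NCOA4 was called there with library totals (0.14, edgeR adjusted p = 0.0437), with no filter (0.15, 0.0346) and with trends of GC content and length removed (0.11, 0.019), the last chosen after seeing the data. That setting also called IREB2 (-0.09, edgeR adjusted p = 0.0313). In FB23-2 against FB23, no filter lost SLC40A1 (0.14, edgeR adjusted p = 0.0599) and FTL (0.07, 0.217), and FTL was not called with only the 6 libraries compared (0.12, 0.0544). Over the 20 alternatives the adjusted p ran from 0.00463 to 0.131 for SLC11A2, 0.019 to 0.286 for NCOA4 and 0.0313 to 0.863 for IREB2 in FB23 against DMSO. It ran from 0.000236 to 0.429 for ACO1 and 9.82e-07 to 0.361 for SLC40A1 in FB23-2 against DMSO, and from 4.27e-08 to 0.217 for FTL, 9.67e-06 to 0.0599 for SLC40A1 and 0.00185 to 0.96 for ACO1 in FB23-2 against FB23. The ACO1 value there was -0.03 with no filter. The cause was not tested.

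The shared replicate numbers showed no clear pairing of the libraries, though a weak pairing could be missed. Deviations of libraries with the same number correlated at -0.185 to 0.0856 over 9 pairs, and with different numbers at -0.135 to 0.166. A library correlated best with its own number in 10 of 18 checks. With a replicate block, 10883 genes were called in FB23-2 against DMSO, 2504 in FB23 against DMSO and 10705 in FB23-2 against FB23, with 8, 5 and 8 of the 9 genes. SLC11A2 in FB23 against DMSO was the call that was lost (-0.19, edgeR adjusted p = 0.0548). Depth limits HMOX1, with at most 2 counts in a library.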

Other observations

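Targets of NRF2, a factor that also raises transcription of both ferritin genes, were read as a list of 10 other genes. With FB23-2 6 were higher and 4 lower, beside 41.3% higher and 41.3% lower among all genes. With FB23 5 were higher and 1 lower, beside 12.3% and 11.2%. This list too was chosen with earlier results of these data known, so its counts are a description. GCLM and ME1, both called lower with FB23-2, overlapped DMSO in TPM, at log2 ratios of -0.16 and 0.08. OSGIN1, a gene of the oxidative stress response, stood at 20.3 ± 0.476 TPM with FB23-2, 6.79 ± 0.476 TPM with FB23 and 2.98 ± 0.306 TPM with DMSO (SD, n = 3 each), and rose by 2.52 ± 0.11 and 1.195 ± 0.12 on the log2 scale (edgeR adjusted p = 5.59e-13 and 4.49e-06). SLC7A11, the cystine importer, had log2 fold changes of -1.38 ± 0.11 for FB23-2 and -0.31 ± 0.10 for FB23, both lower than DMSO (edgeR adjusted p = 1.60e-09 and 0.0306). Its FB23 libraries overlapped DMSO, at 2.90 to 3.88 TPM with FB23 and 3.63 to 4.60 TPM with DMSO.

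SRXN1, which repairs oxidised peroxiredoxins, had opposite calls. It stood at 43.8 ± 0.892 TPM with FB23-2, 102 ± 1.65 TPM with FB23 and 86.0 ± 0.717 TPM with DMSO (SD, n = 3 each), a fall by 1.22 ± 0.05 with FB23-2 and a rise by 0.23 ± 0.05 with FB23. The difference between the compounds was tested directly and came to -1.45 ± 0.05 in FB23-2 against FB23 (edgeR adjusted p = 1.25e-14).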
